A study of Mus musculus with 4 samples.

Results

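Accessible chromatin was described at the genes of the actin cytoskeleton and the contractile apparatus, a module of 43 genes grouped by role into actin isoforms, crosslinkers and bundlers, tropomyosins, myosin II and its kinase, calponins with transgelins and caldesmon, factors of filament nucleation and turnover, SRF with its coactivators, and intermediate filaments. A site belonged to the module when the centre of an accessible interval lay within 3000 bp of an annotated transcription start of a member gene (GENCODE vM1, mm9). This gave 95 of 119609 intervals, at 42 of the 43 genes. Actc1, cardiac actin, had no interval in the window. The number of sites per gene ran from 1, at 15 genes, to 7 at Actn4, and 3 sites lay nearer to the start of a neighbouring gene, at Actg1, Cnn2 and Cfl1.

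The ATAC-seq libraries, in which a transposase cuts open chromatin and leaves sequencing adapters there, came from iMEF2, a line of mouse embryo fibroblasts immortalized with an shRNA against p19Arf. Both Ash2l alleles of these cells carry loxP sites around exon 4, and the cells express Cre-ER, a Cre recombinase that 4-hydroxytamoxifen (HOT) activates. Cells received 5 nM HOT for 7 days (+HOT) or ethanol for the same time (-HOT), with 2 libraries per condition that the study calls technical replicates, so the p-values measure the spread between libraries of 1 cell line. Wild-type cells with HOT were not analysed here, and what HOT or Cre itself does cannot be told apart from the deletion. The methods give fewer PCR cycles for 1 of the -HOT libraries, in words that leave unclear whether it is the one labelled replicate 2.

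The libraries held 21356440 to 37151163 reads in the intervals, and r of log CPM between replicates was 0.976 in +HOT and 0.984 in -HOT. The site at the Ash2l start (log2 fold change -0.25, adjusted p = 0.0285 by edgeR) lies outside the floxed exon and checks no label. As a check of the cell type, all 16 fibroblast marker genes had a site within 3000 bp of a start. A site was also found at 9 of 10 smooth muscle, 8 of 10 skeletal muscle, 5 of 7 epithelial, 4 of 5 endothelial and 1 of 5 blood marker genes. Marker genes without a site were Ptprc, Spi1, Cd3e, Cd79a, Krt18, Cldn4, Tie1, Ckm, Myf5 and Kcnmb1. Having a site thus hardly set the fibroblast markers apart from the muscle markers. At the fibroblast markers 17 of 38 sites were lost (44.7%) and 4 were gained (10.5%). At epithelial markers 5 of 11 were lost (45.5%) and 1 was gained. The short endothelial and blood lists had 2 of 5 and 1 of 1 lost. Among all sites within 3000 bp of a start of a protein-coding gene, 22.8% were lost and 8.20% gained. The summed CPM of the fibroblast marker sites was 823 to 858 in -HOT and 672 to 693 in +HOT. An accessible promoter site is not a measure of expression. The part of these markers in the changes at the contractile genes was not tested.

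Actin polymerizes into filaments that crosslinkers bundle into stress fibres, tropomyosin strands coat, and bipolar filaments of myosin II pull on once the regulatory light chain is phosphorylated. Fibroblasts use this machinery to spread, migrate and contract the matrix. Many of its genes are controlled by SRF, a factor that binds the CArG box, and by its coactivators Mkl1 and Mkl2 (also called MRTF-A and MRTF-B), which monomeric actin holds in the cytoplasm until filaments grow. Ash2l belongs to the core shared by the KMT2 enzymes, which methylate histone H3 at lysine 4, a mark of promoters.

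The CArG box, CC then 6 letters that are each A or T then GG, is the site SRF binds, and 3 of the member promoters that hold it are shown here because they are those of the lost start sites and of SRF itself. Windows ran from 250 bases before to 50 bases after the protein-coding start whose site was nearest, and both strands were searched. At Des, Myh9, Cald1 and Wasl this is another start than the one with the nearest site of all. The box was found in 8 of 42 member windows (19.0%) and in 190 of 15831 windows of all protein-coding genes with a site (1.20%). The sequences are of the mm9 genome, written in the direction of transcription with the box in capitals and the start at position 251: Srf chr17:46693062-46693361 (minus strand), Myl9 chr2:156600906-156601205 (plus strand) and Cnn2 chr10:79451118-79451417 (plus strand).
Srf: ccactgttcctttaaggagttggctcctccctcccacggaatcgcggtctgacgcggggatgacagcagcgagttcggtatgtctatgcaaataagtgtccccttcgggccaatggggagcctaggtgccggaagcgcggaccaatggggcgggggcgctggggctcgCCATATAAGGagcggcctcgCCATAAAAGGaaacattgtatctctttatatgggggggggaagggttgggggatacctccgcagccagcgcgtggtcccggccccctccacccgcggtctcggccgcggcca
Myl9: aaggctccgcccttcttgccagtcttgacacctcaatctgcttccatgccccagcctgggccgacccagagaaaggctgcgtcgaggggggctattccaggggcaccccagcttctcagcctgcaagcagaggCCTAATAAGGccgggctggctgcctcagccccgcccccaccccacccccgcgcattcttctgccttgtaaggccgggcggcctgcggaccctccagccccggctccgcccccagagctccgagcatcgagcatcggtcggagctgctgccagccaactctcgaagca
Cnn2: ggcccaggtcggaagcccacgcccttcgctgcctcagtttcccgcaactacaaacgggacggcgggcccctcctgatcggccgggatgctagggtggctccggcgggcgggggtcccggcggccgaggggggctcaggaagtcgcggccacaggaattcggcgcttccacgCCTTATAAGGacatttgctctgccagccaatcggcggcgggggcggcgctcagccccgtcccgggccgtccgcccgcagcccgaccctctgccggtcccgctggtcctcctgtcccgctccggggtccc
Actb, Actg1, Actg2, Acta1 and Tagln held the box too. A TATA box (TATAAA) was found in 7 of the 42 windows (16.7%, against 7.50% of all windows), and an M-CAT element (CATTCC), which TEAD factors bind, in 10 (23.8%, against 11.7%). The CCAAT box (CCAAT) was in 18 member windows (42.9%, against 35.7%), the GC box (GGGCGG) in 29 (69.0%, against 60.4%) and the AP-1 site (TGANTCA) in 5 (11.9%, against 5.45%). Overlapping matches of these motifs were each counted. The member windows had a median GC content of 65.5%, against 61.0% over all windows, and a median observed-over-expected CpG of 0.72, against 0.74. These matches are descriptions of the sequence and say nothing of which factor is bound.

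Accessibility at the sites of the module was lower in +HOT than in -HOT at most places, by small amounts. Of the 95 sites, 21 were lost and 2 were gained at an adjusted p below 0.05 and an absolute log2 fold change above 0.40 (edgeR quasi-likelihood test, Benjamini-Hochberg over all 119603 tested sites), which is 22.1% and 2.11% of them. The median log2 fold change of +HOT over -HOT was -0.23, from -0.27 to -0.17 when each +HOT library is set against each -HOT library. Among all 22898 sites within 3000 bp of a start of a protein-coding gene, the shares were 22.8% lost and 8.20% gained, and the median was -0.19. The share of lost member sites was thus near that of promoters in general. Over all tested sites, wherever they lay, the shares were 14.2% lost and 21.3% gained, the median was 0.00, and the totals of 25433 gained and 17008 lost sites became 21553 and 23251 when the scaling was taken from distal sites.

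Both +HOT libraries lay below both -HOT libraries at 60 member sites and above them at 8. At promoter sites in general 56.2% lay below and 16.5% above. The groups overlapped at none of the 23 called member sites. This adds no support to the calls, because a call already asks for a difference that is large beside the spread of the libraries. The count of lost sites depended on the scaling: it was 12 with library totals and 13 with offsets that follow the level of each site, and the median was then -0.16 and -0.06. Library totals ended the calls at Actg2, Fscn1, Lima1, Myl9, Mylk, Cald1 +2398, Cnn2 +185, Lmod1 +524 and Vim. Of the 23 called sites, 7 kept their call under all 13 alternatives tried. The alternative with no fold minimum is the main fit with a looser threshold and could end no call. Without -HOT replicate 1 the module had 14 lost sites. Abundance-trended offsets ended the calls at Actn4 -2947 (-0.29), Fscn1 +587 (-0.20), Lima1 -5 (-0.28), Tpm2 +18 (-0.36), Myl9 -121 (-0.25), Cald1 +2398 (-0.20), Cnn1 +675 (-0.34), Cnn2 +185 (-0.35), Lmod1 +524 (-0.26) and Des -147 (0.45), and removing the GC trend those at Fscn1 +587 (-0.31), Lima1 -5 (-0.39), Tpm2 +18 (-0.37), Myl9 -121 (-0.37) and Cnn2 +185 (-0.15). With DESeq2 the adjusted p was 0.0695 to 0.215 at Actg2 +2259, Tpm1 +2520, Tpm3 -935, Mylk -57, Cnn2 +185, Des -147 and Vim -964, which were then not called. Des -147 was also not called with TMM on distal sites (0.65, adjusted p = 0.0536), nor Cald1 +2398, at the very edge of the fold minimum, with a minimum of 1 CPM in 2 libraries. With no fold minimum 38 member sites were lower and 3 higher.

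**Figure D1:**
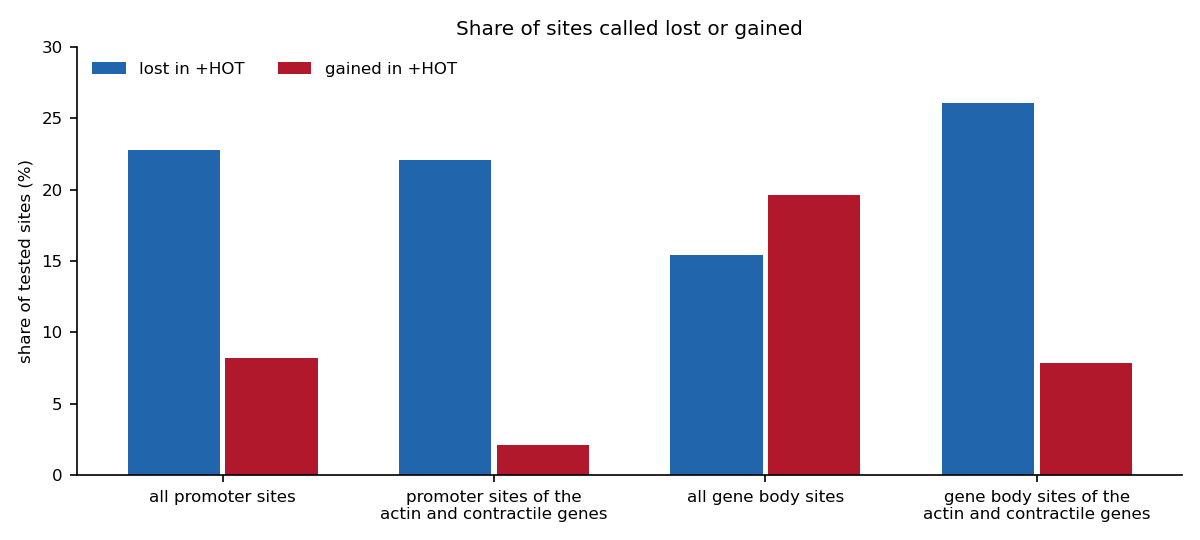
Bars give the percentage of tested sites called lost (blue) or gained (red) in +HOT, for all promoter sites, the 95 promoter sites of the actin and contractile genes, all gene body sites and the 203 gene body sites of these genes. The share lost was 22.1% at the promoter sites of the module and 22.8% at all promoter sites, and 26.1% against 15.4% in gene bodies. The gene body sites were not matched for level (median 6.31 CPM in the module, 3.90 CPM in general).

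The members were also set beside promoter sites of like level. With promoter sites divided by level into 4 classes of equal size, the 40 member sites of the most accessible class (above 25.3 CPM) had a median log2 fold change of -0.19 with 5 lost and 0 gained, and all promoter sites of that class had a median of -0.20 with 14.3% lost. In the weakest class (up to 4.32 CPM) the 11 member sites had a median of -0.30 with 3 lost and 1 gained, where promoter sites in general had a median of 0.05 with 13.7% lost and 22.1% gained. The 25 and 19 member sites of the classes between had medians of -0.19 and -0.31 with 7 and 6 lost and 1 and 0 gained, where promoter sites in general had medians of -0.19 and -0.28 with 31.7% and 31.3% lost and 9.38% and 0.716% gained. The depth behind a member site ran from 20 to 3694 reads in a library, and 7 sites had a library under 50 reads. In a finer division into 20 classes, and against the promoter sites of their own class, 9 member sites, all of them called lost, lay below the 10th percentile (at Actg2, Actn4, Tpm1, Tpm2, Myl6, Myl9, Cald1, Lmod1 and Mkl1) and 7 above the 90th (at Actn4, Flnc, Lima1, Cfl2, Diap1, Gsn and Srf), numbers close to the 10% on either side that define these percentiles.

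**Figure D2:**
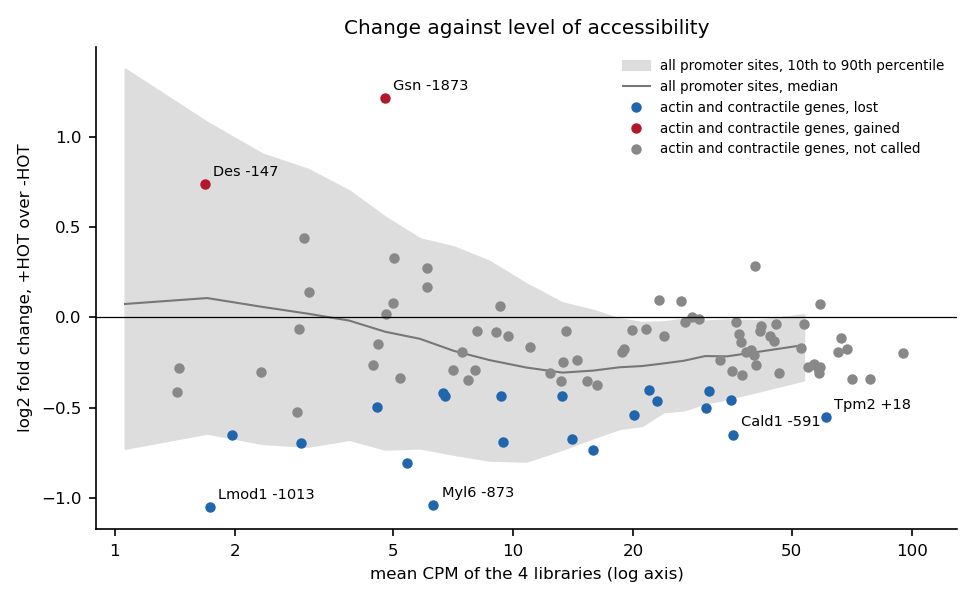
Each point is a member site, placed by its mean CPM over the 4 libraries (log axis) and its log2 fold change of +HOT over -HOT, coloured as lost (blue), gained (red) or not called (grey); the band spans the 10th to the 90th percentile and the line the median of all promoter sites of the same level. Gsn -1873 stands above the band at 1.21 and Cald1 -591 below it at -0.65.

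The actin isoforms, the subunits of the filament itself, had 1 lost site of 7 and a median log2 fold change of -0.28. The site over the start of Acta2 (alpha smooth muscle actin, chr19:34328387-34330822, centre in an intron) held 48.0 and 42.2 CPM in the +HOT and 46.7 and 45.9 CPM in the -HOT libraries. The groups overlapped, and the difference did not pass the test (log2 fold change -0.04 ± 0.09, adjusted p = 0.791). Actb, the cytoplasmic beta actin, held 36.7 and 37.2 CPM in +HOT and 45.5 and 43.2 in -HOT at chr5:143667504-143669830. Both +HOT libraries were below both -HOT libraries there, but the change was under the fold minimum (log2 fold change -0.26 ± 0.09, adjusted p = 0.0176). The strongest uncalled actin site per kb, upstream of Actg1 (cytoplasmic gamma actin, 26.5 CPM per kb), lies nearer to the start of 0610009L18Rik. It held 52.4 and 51.0 CPM in +HOT and 64.7 and 59.2 CPM in -HOT, with the groups apart and the change under the fold minimum (log2 fold change -0.26 ± 0.09, adjusted p = 0.0180).

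Actg2, the enteric smooth muscle actin, was the lost isoform. Its intronic site 2259 bp after the start (chr6:83483806-83484194) held 1.12 and 1.99 CPM in +HOT and 2.28 and 2.51 CPM in -HOT. All values were low and the +HOT libraries lay below (log2 fold change -0.65 ± 0.27, adjusted p = 0.0428). The call was lost without +HOT replicate 1 (-0.27), without -HOT replicate 1 (-0.72, adjusted p = 0.0949) and without -HOT replicate 2 (-0.58, adjusted p = 0.174). At the Actg2 start, whose window holds 2 CArG boxes, the log2 fold change was -0.52 ± 0.23 (adjusted p = 0.0564), and at Acta1, skeletal muscle actin, -0.30 ± 0.24 (adjusted p = 0.324).

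The sites nearest to the starts with a CArG box did not all change. Of the 8, 2 were lost and 0 gained, the median being -0.28 and the range from -0.52 to -0.01. The Actg1 site among them is centred 1369 bp upstream, does not reach the Actg1 start and lies nearer to the start of 0610009L18Rik. Of the other 34 genes, 5 had lost the site nearest to any of their annotated starts, with a median of -0.17. The 2 lost were Myl9 and Cnn2, described with their groups, and the value nearest to 0 was that of Srf.

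**Figure D3:**
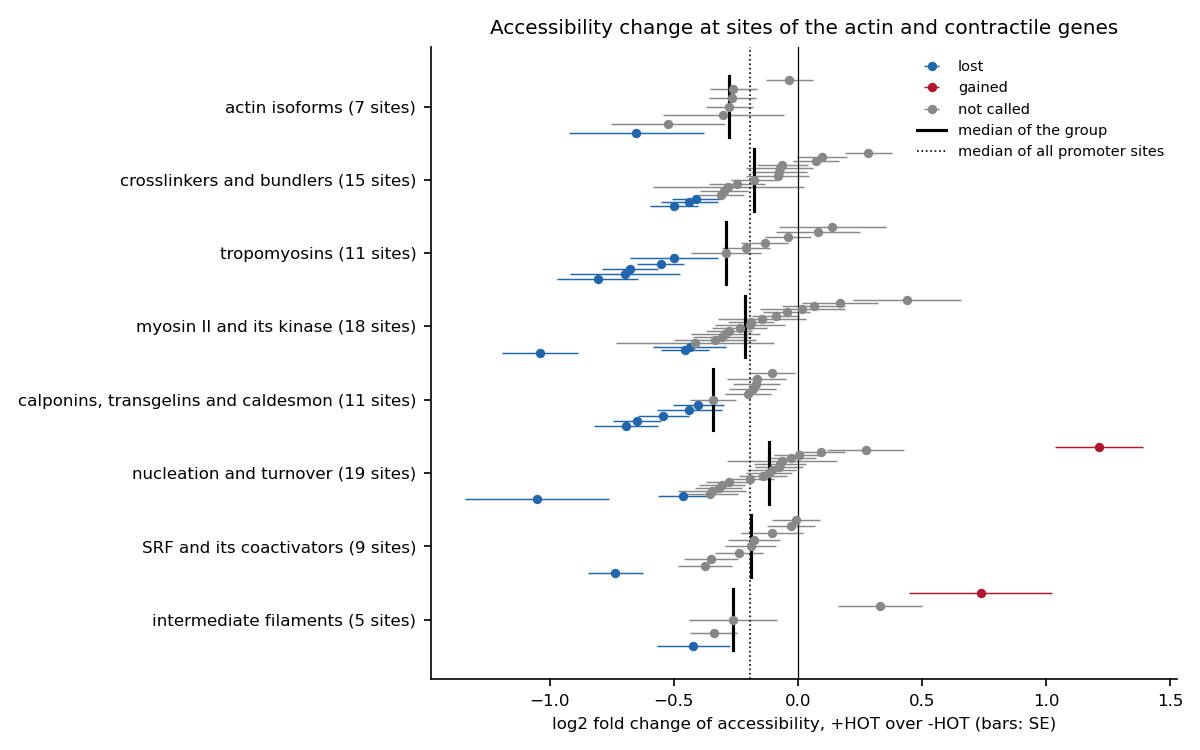
Each point is 1 of the 95 member sites with its log2 fold change of +HOT over -HOT (bars, SE of the fit), in rows by role, coloured as lost (blue), gained (red) or not called (grey). Thick lines mark the median of each group, from -0.34 for calponins, transgelins and caldesmon to -0.12 for nucleation and turnover, and the dotted line the median of all promoter sites, -0.19.

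Tropomyosins, the coiled coils that lie along the filament and set which myosins and severing factors reach it, had 5 lost and 0 gained sites of 11, with a median of -0.29. Tpm2 (beta tropomyosin) had, at 21.5 CPM per kb, the strongest lost site after that of Fscn1 (22.8 CPM per kb). The site over its start (chr4:43535030-43537868, centre in a UTR exon) held 50.3 and 48.6 CPM in +HOT and 75.6 and 69.4 CPM in -HOT. Both +HOT values were well below both -HOT values (log2 fold change -0.55 ± 0.09, adjusted p = 5.74e-07). With abundance-trended offsets it stood at -0.36 and with the GC trend removed at -0.37, under the fold minimum in both.

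Tpm1 (alpha tropomyosin) has annotated start regions 5499 bp apart, and its sites did not change equally. The site at the upstream start (chr9:66896210-66898188) held 37.5 and 37.4 CPM in +HOT and 45.5 and 41.0 CPM in -HOT and was not called (log2 fold change -0.21 ± 0.10, adjusted p = 0.0653). The site at the internal start (chr9:66891109-66892281), from which the short isoforms are transcribed, held 10.5 and 11.1 CPM in +HOT against 18.7 and 15.7 in -HOT. It was lost (log2 fold change -0.68 ± 0.11, adjusted p = 4.12e-07), and it differed from the 7 other sites of the gene (edgeR diffSpliceDGE, adjusted p = 2.87e-04), whose median was -0.21. The intronic site 1730 bp after another start of that region (chr9:66889431-66890142) fell as well, with 4.14 and 3.70 CPM in +HOT and 6.86 and 6.93 CPM in -HOT (log2 fold change -0.81 ± 0.16, adjusted p = 2.30e-05; against the other sites of the gene, adjusted p = 0.00154). Each of these groups of libraries was separate, and both lost sites were called under every alternative tried.

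A further intronic site of Tpm1, at 2520 bp (chr9:66888844-66889149), held 2.18 and 2.30 CPM in +HOT and 3.47 and 3.78 in -HOT (log2 fold change -0.70 ± 0.22, adjusted p = 0.00713). It was not called without +HOT replicate 1 (-0.65, adjusted p = 0.0503) or without -HOT replicate 2 (-0.64, adjusted p = 0.0623). The Tpm1 promoter windows are printed because their sites changed unequally: both have a GC content of 67.7%, the CpG ratio is 0.79 upstream and 0.83 at the internal start, and only the internal window holds GC boxes, 2 of them, in capitals (as CCGCCC, the box read on the other strand). No other motif of the list matched in either. Both are on the minus strand, at chr9:66897164-66897463 and chr9:66891665-66891964.
Tpm1 upstream: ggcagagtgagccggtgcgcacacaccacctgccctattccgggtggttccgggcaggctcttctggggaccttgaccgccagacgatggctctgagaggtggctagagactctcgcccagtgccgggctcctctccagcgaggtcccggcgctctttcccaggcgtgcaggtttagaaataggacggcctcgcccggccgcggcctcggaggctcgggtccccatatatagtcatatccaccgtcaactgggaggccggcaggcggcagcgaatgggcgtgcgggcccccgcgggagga
Tpm1 internal: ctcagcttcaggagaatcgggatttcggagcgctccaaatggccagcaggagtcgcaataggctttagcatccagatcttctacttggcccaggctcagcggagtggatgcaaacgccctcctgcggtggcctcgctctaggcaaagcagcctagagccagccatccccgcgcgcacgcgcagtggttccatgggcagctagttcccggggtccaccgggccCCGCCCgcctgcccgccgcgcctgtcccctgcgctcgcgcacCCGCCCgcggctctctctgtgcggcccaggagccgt
At Tpm3, a tropomyosin of the cell cortex, the strongest uncalled start of the group (27.6 CPM per kb) held 45.5 and 40.5 CPM in +HOT and 48.5 and 46.0 CPM in -HOT (log2 fold change -0.13 ± 0.09, adjusted p = 0.256). Its intronic site 935 bp before an internal start was called lost at -0.50 ± 0.18, a call that ended without +HOT replicate 1 (-0.42, adjusted p = 0.121), -HOT replicate 1 (-0.51, adjusted p = 0.0753) or -HOT replicate 2 (-0.49, adjusted p = 0.0747). Tpm4 had 1 site, at -0.04.

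**Figure D4:**
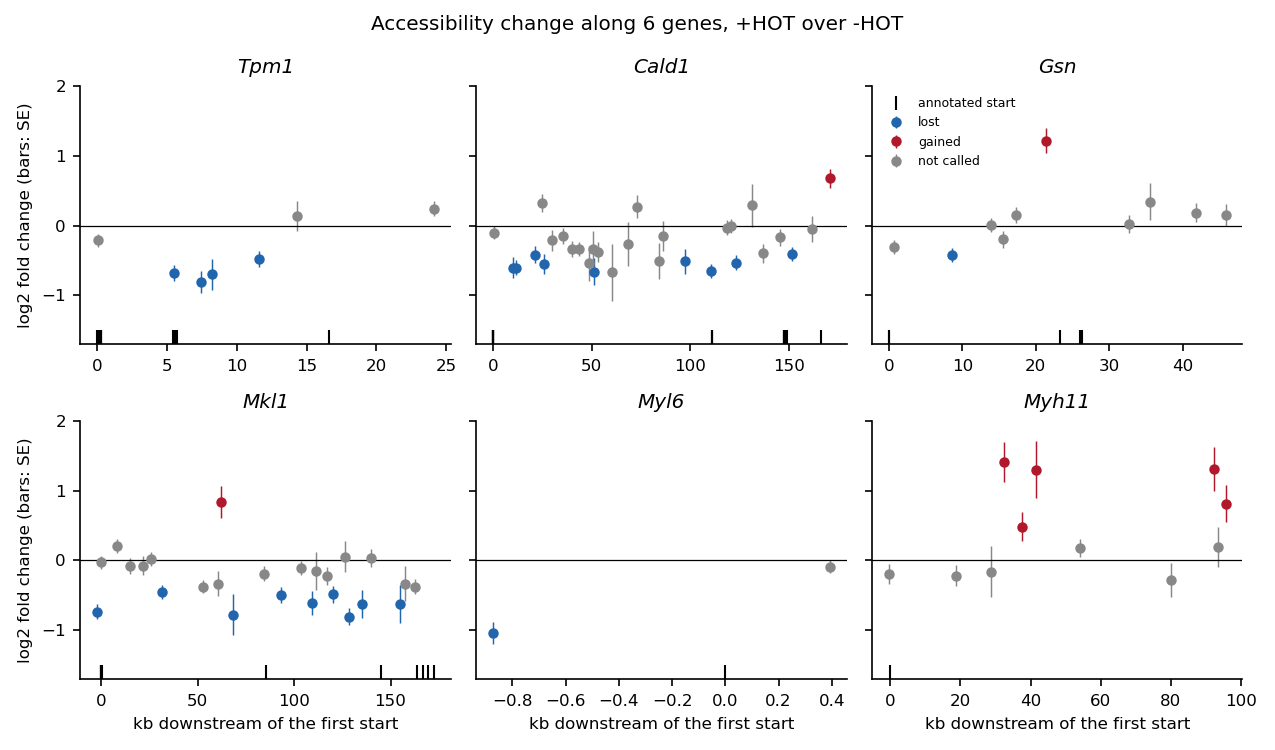
Log2 fold change of +HOT over -HOT (bars, SE) of every promoter and gene body site of 6 genes, by distance downstream of the first annotated start in kb; ticks at the base mark annotated starts, and colours mark lost (blue), gained (red) and not called (grey). In Tpm1 the 4 sites from the internal start onward are lost while the upstream start and the last 2 sites are not called, in Gsn 1 intronic site is gained, and in Myh11 5 of 10 gene body sites are gained.

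Calponins, transgelins and caldesmon bind the filament and, in smooth muscle, restrain the myosin motor. They had the lowest median of the groups, -0.34, with 5 lost and 0 gained sites of 11. Cnn1, the calponin of smooth muscle, has 1 site over its start (chr9:21903364-21905437, intron), which held 15.9 and 16.8 CPM in +HOT and 24.8 and 22.7 CPM in -HOT. The groups were apart (log2 fold change -0.54 ± 0.10, adjusted p = 7.16e-06), and of the 13 alternatives 1, abundance-trended offsets, brought the change under the fold minimum (-0.34).

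Cnn2, the calponin of non-muscle cells, lost a pair of intronic sites. The one nearest to the start (chr10:79451288-79451819) held 7.93 and 7.90 CPM in +HOT and 12.1 and 9.27 in -HOT (log2 fold change -0.44 ± 0.13, adjusted p = 0.00381). It was not called without -HOT replicate 1, the higher of the -HOT libraries (-0.23, adjusted p = 0.311), or with the GC trend removed (-0.15, adjusted p = 0.350), library totals, abundance-trended offsets or DESeq2. The site at 1419 bp (chr10:79452519-79453055) held 7.41 and 7.04 CPM in +HOT and 12.8 and 10.6 CPM in -HOT. That loss was larger (log2 fold change -0.69 ± 0.13, adjusted p = 4.56e-06) and was called under every alternative.

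Cald1 (caldesmon) also had an uncalled upstream start and a lost internal site. At the upstream start the site (chr6:34547539-34550093) held 44.7 and 40.3 CPM in +HOT and 46.0 and 45.6 in -HOT and was not called (log2 fold change -0.10 ± 0.09, adjusted p = 0.383). The site 591 bp before an internal start (chr6:34657429-34660273, intron) held 27.9 and 27.4 CPM in +HOT and 42.0 and 44.9 CPM in -HOT. It was lost (log2 fold change -0.65 ± 0.10, adjusted p = 1.55e-08) under every alternative, and it differed from the 25 other sites assigned to the gene (adjusted p = 0.00298), whose median was -0.34. Another lost site of Cald1, 2398 bp after a further start, stood at -0.40 ± 0.10, just past the fold minimum, and was not called without +HOT replicate 2 (-0.31) or -HOT replicate 1 (-0.37). Tagln (SM22, a calponin relative and a classic target of SRF), with the strongest uncalled nearest site of the group at 19.6 CPM per kb, held 38.7 and 35.2 CPM in +HOT and 42.6 and 41.4 CPM in -HOT (log2 fold change -0.18 ± 0.10, adjusted p = 0.111). Tagln2 and Cnn3, the other members of the group, stood at -0.34 ± 0.09 (adjusted p = 0.00159) and -0.17 ± 0.10 (adjusted p = 0.146), both under the fold minimum.

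**Figure D5:**
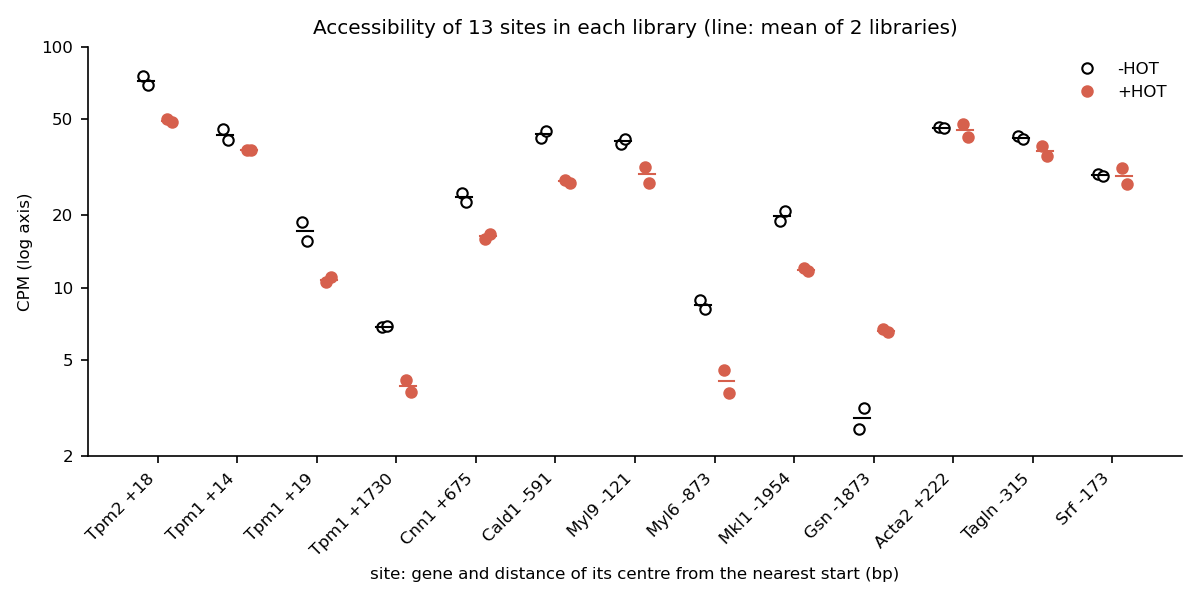
CPM of 13 sites on a log axis, with 2 -HOT libraries as open circles, 2 +HOT libraries as filled circles and a line at each mean. The +HOT libraries lie apart from and below the -HOT libraries at the lost sites, above them at Gsn -1873 (6.74 and 6.55 against 2.58 and 3.18), and overlap with them at Acta2 and Srf.

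Myosin II is the motor, made of heavy chains, essential light chains and regulatory light chains, and Mylk is the kinase that phosphorylates the last. The group had 3 lost and 0 gained sites of 18, with a median of -0.21. Myl9, the regulatory light chain of smooth muscle and stress fibres, has 1 site at its start (chr2:156600080-156601990, centre upstream), with 31.9 and 27.3 CPM in +HOT and 39.7 and 41.7 CPM in -HOT. It was lost (log2 fold change -0.46 ± 0.10, adjusted p = 5.54e-05). The call ended without +HOT replicate 2, the lower of the +HOT libraries (-0.35), with the GC trend removed (-0.37), with library totals (-0.38) and with abundance-trended offsets (-0.25). Its window holds a CArG box. Mylk was lost at the start nearest to a site (chr16:34784521-34785379, intron), with 5.76 and 5.69 CPM in +HOT and 8.11 and 7.36 in -HOT (log2 fold change -0.44 ± 0.15, adjusted p = 0.0104). Without -HOT replicate 1 it was not called (-0.37, adjusted p = 0.130), and the other 3 Mylk sites ran from 0.02 to 0.17.

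The largest loss of the group was at Myl6, the essential light chain of non-muscle myosin. The site 873 bp upstream of its start (chr10:127931554-127932055) held 4.56 and 3.66 CPM in +HOT and 8.89 and 8.13 CPM in -HOT. The -HOT libraries were far above the +HOT libraries (log2 fold change -1.04 ± 0.15, adjusted p = 1.37e-08), in every alternative, while the site over the start held 35.0 and 36.3 CPM in +HOT and 37.6 and 38.3 in -HOT and was not called (log2 fold change -0.09 ± 0.10, adjusted p = 0.465). The upstream site differed from the 2 other sites assigned to the gene (adjusted p = 3.31e-05). The heavy chains Myh9, Myh10 and Myh11 had no called promoter site, and Myh10, the strongest uncalled nearest site of the group at 25.4 CPM per kb, held 53.1 and 51.8 CPM in +HOT and 62.1 and 65.2 CPM in -HOT (log2 fold change -0.28 ± 0.09, adjusted p = 0.0108). The site at the coding start of Myh9, the strongest of the group at 34.7 CPM per kb, held 64.1 and 57.7 CPM in +HOT and 70.8 and 68.3 CPM in -HOT and was not called (log2 fold change -0.19 ± 0.09, adjusted p = 0.0904). The nearest Myh9 site, a weak one at a noncoding transcript, was at -0.42 (adjusted p = 0.298), that of Myh11 at -0.19 and that of Myl12a, a regulatory light chain, at -0.05. An intronic site of Myh9, 2439 bp after the internal start of a noncoding transcript, held 3.51 and 3.39 CPM in +HOT and 2.67 and 2.41 CPM in -HOT. It was uncalled in itself (log2 fold change 0.44 ± 0.22, adjusted p = 0.0908) but stood above the 19 other sites of the gene (median -0.33, adjusted p = 0.00712).

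Crosslinkers and bundlers join filaments to each other. They had 3 lost and 0 gained sites of 15, with a median of -0.18. Lima1 (EPLIN, which stabilizes stress fibres) was lost at its upstream start (chr15:99704987-99706741), with 10.6 and 12.0 CPM in +HOT and 16.5 and 14.0 CPM in -HOT (log2 fold change -0.44 ± 0.11, adjusted p = 9.84e-04). The call was lost without +HOT replicate 1 (-0.35) and without -HOT replicate 1 (-0.32). Its site at an internal start (chr15:99647837-99650910) held 63.3 and 57.5 CPM in +HOT and 55.4 and 59.7 in -HOT, with overlapping groups (log2 fold change 0.07 ± 0.09, adjusted p = 0.556), and differed from the 15 other sites of the gene (median -0.40, adjusted p = 0.00777).

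Other crosslinkers showed small or split changes. Actn4 (alpha-actinin 4) held 24.6 and 23.5 CPM in +HOT and 23.6 and 21.4 CPM in -HOT at its upstream start (0.10 ± 0.10) and was lost at an intronic site 2947 bp before an internal start (-0.50 ± 0.10, adjusted p = 1.09e-05), a call that abundance-trended offsets ended (-0.29). The start site differed from the 15 other sites of the gene, whose median was -0.27 (adjusted p = 0.00593). Fscn1 (fascin, which bundles filaments in filopodia) was lost at an intronic site 587 bp after an internal start (-0.41 ± 0.10), just past the fold minimum. That call ended without +HOT replicate 2 (-0.39) or -HOT replicate 1 (-0.34). The site over the upstream start of Fscn1 held 53.5 and 51.1 CPM in +HOT and 66.4 and 63.4 CPM in -HOT. It was under the fold minimum and not called (-0.31 ± 0.09, adjusted p = 0.00438). In Flnc, the filamin of muscle, the upstream site at -1641 bp held 34.0 and 29.3 CPM in +HOT and 39.4 and 38.6 CPM in -HOT (-0.30 ± 0.10) and lay below the 7 other sites of the gene (median 0.29, adjusted p = 0.00137). Actn1, with the strongest uncalled nearest site of the group at 24.6 CPM per kb, held 66.1 and 63.2 CPM in +HOT and 75.3 and 71.0 CPM in -HOT (-0.18 ± 0.09, adjusted p = 0.115).

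Factors of nucleation and turnover start, cap, sever and depolymerize filaments. They had 2 lost and 1 gained site of 19 and the highest median, -0.12. Gsn (gelsolin, which severs and caps) held the larger of the gains. Its intronic site 1873 bp before an internal start (chr2:35133023-35133597) held 6.74 and 6.55 CPM in +HOT and 2.58 and 3.18 CPM in -HOT. Both +HOT libraries were above both -HOT libraries (log2 fold change 1.21 ± 0.18, adjusted p = 1.10e-08), also in every alternative. At the upstream start of Gsn the site held 42.4 and 40.5 CPM in +HOT and 53.2 and 49.3 CPM in -HOT, with a change of the opposite sign under the fold minimum (log2 fold change -0.31 ± 0.09, adjusted p = 0.00544), and the gained site differed from the 10 other sites of the gene (median 0.02, adjusted p = 1.92e-09).

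Lmod1 (leiomodin, a nucleator of smooth muscle) was the lost gene of the group, at both its sites. The site over the start (chr1:137220922-137222907) held 20.1 and 18.5 CPM in +HOT and 28.4 and 24.8 CPM in -HOT (log2 fold change -0.46 ± 0.10, adjusted p = 9.07e-05). Without -HOT replicate 1 it was not called (-0.36). The weak site 1013 bp upstream (chr1:137220249-137220493) held 0.843 and 1.44 CPM in +HOT and 2.36 and 2.28 CPM in -HOT (log2 fold change -1.05 ± 0.29, adjusted p = 0.00191). Without +HOT replicate 1, the lower of the +HOT libraries, the latter was at -0.68 with an adjusted p of 0.107. The cofilins, which sever aged filaments, profilin (Pfn1), which feeds monomers to growing ends, the Arp2/3 subunits Arpc2 and Arpc5, N-WASP (Wasl), the capping protein Capg and the formin Diap1 had no called promoter site. Cfl1, whose nearest site was the strongest uncalled nearest site of the group at 24.7 CPM per kb, held 43.5 and 37.5 CPM in +HOT and 44.5 and 41.0 CPM in -HOT (log2 fold change -0.08 ± 0.10, adjusted p = 0.541). The nearest sites of the others stood at -0.28 for Pfn1, -0.19 for Arpc5, -0.14 for Wasl, -0.11 for Capg, 0.09 for Cfl2 and 0.00 for Diap1. The Arpc2 start held 24.8 and 28.9 CPM in +HOT and 28.3 and 26.2 CPM in -HOT (log2 fold change -0.03 ± 0.10, adjusted p = 0.843) and differed from the 6 other sites of the gene, whose median was -0.52 (adjusted p = 0.00119).

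At SRF and its coactivators 1 of 9 sites was lost and 0 were gained, with a median of -0.19. The site at the start of Srf (chr17:46692846-46693723) held 31.4 and 26.9 CPM in +HOT and 29.8 and 29.0 CPM in -HOT. The groups overlapped (log2 fold change -0.01 ± 0.10, adjusted p = 0.956). Mkl1 was likewise uncalled at its start (38.3 and 33.4 CPM in +HOT, 37.7 and 35.6 in -HOT; log2 fold change -0.03 ± 0.10, adjusted p = 0.835). It was lost 1954 bp upstream (chr15:81022649-81023633), where the +HOT libraries held 12.1 and 11.7 CPM and the -HOT libraries 18.9 and 20.8 CPM. That site was called under every alternative (log2 fold change -0.74 ± 0.11, adjusted p = 1.50e-08) and differed from the 24 other sites of the gene (median -0.28, adjusted p = 4.22e-04). Mkl2 stood at -0.18 and -0.35 and was not called.

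The intermediate filament genes had 1 gained and 1 lost site of 5. Des (desmin, of muscle) was gained at a noncoding exon 147 bp before the start of a noncoding transcript (chr1:75358309-75358608). This site held 2.11 and 2.08 CPM in +HOT and 1.00 and 1.54 CPM in -HOT (log2 fold change 0.74 ± 0.29, adjusted p = 0.0311). The values were low, and the call ended without +HOT replicate 1 (0.73, adjusted p = 0.102), +HOT replicate 2 (0.75, adjusted p = 0.0737) or -HOT replicate 1 (0.44, adjusted p = 0.371). The Des site 854 bp upstream of the coding start held 4.32 and 3.75 CPM in +HOT and 4.83 and 4.89 CPM in -HOT. It was not called (log2 fold change -0.26 ± 0.18, adjusted p = 0.235), nor was the Des site 2612 bp upstream (0.33 ± 0.17, adjusted p = 0.104). Vim (vimentin, of mesenchymal cells) held 62.5 and 62.5 CPM in +HOT and 81.2 and 76.9 CPM in -HOT at its start. This was the strongest uncalled site of the group at 22.2 CPM per kb (log2 fold change -0.34 ± 0.09, adjusted p = 0.00171). A weaker Vim site in a coding exon was lost at -0.42 ± 0.15, but not without +HOT replicate 2 (-0.30) or -HOT replicate 2 (-0.33).

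The sites that differed from the rest of their gene were mostly away from the start nearest to a site. Of 91 member sites in genes with several sites, 11, at 10 genes, differed from the other sites of the gene (12.1%, against 28.5% of all 64945 sites in that test), 6 of them below and 5 above, and 2 of the 11, Actn4 -45 and Arpc2 +565, were the nearest site of their gene. The test with the replicate number as a block gave 19. The central 200 bases of 3 member sites that kept their call under every alternative are printed on the plus strand of mm9, to show what the changed sequence is: Gsn -1873 chr2:35133211-35133410, Myl6 -873 chr10:127931705-127931904 and Tpm1 +1730 chr9:66889687-66889886.
Gsn -1873: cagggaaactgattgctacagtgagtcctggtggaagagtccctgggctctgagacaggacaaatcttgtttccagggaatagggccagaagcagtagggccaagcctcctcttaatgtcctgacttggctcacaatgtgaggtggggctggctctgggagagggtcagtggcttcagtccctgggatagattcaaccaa
Myl6 -873: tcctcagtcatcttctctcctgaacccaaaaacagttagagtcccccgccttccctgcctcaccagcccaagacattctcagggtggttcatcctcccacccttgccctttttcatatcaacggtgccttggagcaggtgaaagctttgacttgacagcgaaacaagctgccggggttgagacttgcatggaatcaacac
Tpm1 +1730: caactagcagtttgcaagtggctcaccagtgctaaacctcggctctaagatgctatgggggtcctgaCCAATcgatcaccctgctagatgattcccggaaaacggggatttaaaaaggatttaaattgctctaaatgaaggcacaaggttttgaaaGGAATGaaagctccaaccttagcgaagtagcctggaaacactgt
Capitals mark a CCAAT box and an M-CAT element (on the other strand, GGAATG) at Tpm1 +1730. None of the 6 motifs was found in the centres of Gsn -1873 and Myl6 -873. In the same window the CArG box was in 5 of 95 member sites (5.26%) and 1.30% of all placed sites, the GC box in 25.3% and 8.53%, the CCAAT box in 15.8% and 23.5%, the TATA box in 11.6% and 12.9%, the M-CAT element in 17.9% and 15.8%, and the AP-1 site in 6.32% and 17.9%. The sets are unlike, since the member sites are promoter sites and most of all sites lie away from promoters.

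Inside the member genes, more than 3000 bp from any start, lay 203 tested sites of 22 genes, which the choice of members did not use. Of these 53 were lost and 16 were gained (26.1% and 7.88%), with a median log2 fold change of -0.20. Of all 44152 gene body sites the shares were 15.4% lost and 19.6% gained, around a median of -0.01. The share lost in the bodies of the module was above that of gene bodies in general, and this difference was not tested. The body sites of the module were also more accessible (median 6.31 CPM, against 3.90 CPM in general). The shares were not compared at like level.

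The largest loss in a gene body was in Arpc2, a subunit of the Arp2/3 complex that nucleates branched filaments. Its intronic site 12643 bp after a start (chr1:74295064-74296470) held 7.27 and 6.86 CPM in +HOT and 21.5 and 19.4 CPM in -HOT. The groups lay far apart (log2 fold change -1.53 ± 0.12, adjusted p = 3.35e-22), although the Arpc2 start was not called. Intronic sites were lost in Tpm4 (chr8:74668346-74668713, 2.25 and 1.85 CPM in +HOT and 4.56 and 4.28 in -HOT, log2 fold change -1.10 ± 0.21) and in Myh9, the main heavy chain of fibroblasts (chr15:77662775-77663337, 4.28 and 3.39 CPM in +HOT and 8.14 and 7.90 in -HOT, log2 fold change -1.05 ± 0.16). The next largest losses were in Mkl2 (-1.01 ± 0.16) and at a noncoding exon of Myh9 (-0.93 ± 0.12). Myh9 lost 7 of its 14 body sites, Mkl1 8 of 21, Cald1 7 of 26 and Lima1 6 of 14, where 2 were gained, the larger of them at 1.11 and not called without +HOT replicate 1 (0.99, adjusted p = 0.0773) or -HOT replicate 1 (0.93, adjusted p = 0.107).

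Other gene bodies were mixed. Mylk had 5 lost and 2 gained of 24 body sites (median 0.01), and Mkl2 had 2 lost and 2 gained of 15 (-0.15). Diap1 had 0 lost and 1 gained of 9 (-0.04), and Gsn had 1 lost and 0 gained of 8 (0.09). Mkl1 and Cald1, named above for their losses, had 1 gained body site each. Myh11, the heavy chain of smooth muscle, had 5 of 10 body sites gained and 0 lost. Its intronic site at 32380 bp (chr16:14258936-14259306) held 2.70 and 2.35 CPM in +HOT and 1.03 and 0.870 in -HOT (log2 fold change 1.41 ± 0.29, adjusted p = 3.23e-05). The intronic site at 92342 bp (chr16:14199004-14199315) held 2.07 and 2.17 CPM in +HOT and 0.889 and 0.803 CPM in -HOT (log2 fold change 1.31 ± 0.31, adjusted p = 3.00e-04). Both rose in both +HOT libraries, and both calls held without each library in turn. Another, at 41560 bp, was at 1.30 and was not called without +HOT replicate 2 (0.47) or -HOT replicate 1 (1.17, adjusted p = 0.0723). Flnc had 2 gained and 0 lost body sites of 4, and the one at 16177 bp was not called without +HOT replicate 2 (0.40) or -HOT replicate 1 (0.76), with adjusted p-values of 0.450 and 0.130.

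Genes around the module are given by the lists they belong to, with the changes of their promoter sites (8.20% gained and 22.8% lost at promoters in general). The other Arp2/3, WASP and WAVE subunits had 7 of 35 lost and 1 gained (median -0.24). Abi1 stood at -0.99, Wipf1 at -0.47 and Cyfip2 at -0.40, the Abi1 site being weak (0.361 to 1.36 CPM, SE 0.38). Formins and other nucleators had 9 of 34 lost and 2 gained (median -0.25). Fmnl1, a weak site (0.702 to 1.92 CPM, SE 0.33), stood at -1.27 and Cobl at -0.81. Fmnl3, a formin of filopodia, stood at -0.75 (28.6 and 26.1 CPM in +HOT, 48.6 and 43.1 in -HOT). Capping, severing and monomer-binding genes had 14 of 53 lost and 5 gained (median -0.14), with Eps8 at -0.96, Coro1c at -0.66 and Tmod2, a pointed-end capping protein, at 0.79. Other crosslinkers and adhesion linkers had 16 of 78 lost and 5 gained (median -0.19). Pls3, a weak site (0.807 to 2.04 CPM, SE 0.32), stood at -1.05. Pdlim1 stood at -1.01 and Ezr, which ties filaments to the membrane, at -0.89. SRF target genes outside the module had 9 of 34 lost and 3 gained (median -0.21), with Tuft1 at -1.21, Ankrd1 at -0.60 and Egr3 at -0.59. Other myosins had 7 of 44 lost and 6 gained (median -0.16), with Myh14 at 0.88 and Mylk4 at 0.87.

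Striated sarcomere genes had more gained than lost sites: of 32 sites at 20 of the 29 genes 6 were gained and 0 lost, with a median of 0.16. Ttn (titin) held 2.53 and 2.26 CPM in +HOT and 1.28 and 1.27 CPM in -HOT at the site nearest to a start (log2 fold change 0.91 ± 0.28, adjusted p = 0.00468). Tnnt1, a troponin T of slow muscle, held 6.81 and 6.28 CPM in +HOT and 4.36 and 4.85 CPM in -HOT (log2 fold change 0.51 ± 0.16, adjusted p = 0.00585). Myom2 stood at 1.90 ± 0.29. All 3 rose from low levels with the groups apart. Among all promoter sites of the weakest class (up to 4.32 CPM), 22.1% were gained and 13.7% lost. The sarcomere sites were not set beside promoter sites of like level. Skeletal muscle markers, which share at least Tnnt1 with the sarcomere list, had 3 of 11 sites gained and 0 lost. Smooth muscle markers, of which 5 of 10 genes are in the module, had 7 of 18 lost and 2 gained. The summed CPM of the skeletal muscle marker sites was 47.4 to 49.2 in -HOT and 57.4 to 57.9 in +HOT, and the difference between lists was not tested.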

How the data were processed

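ATAC-seq was analysed in 4 libraries, 2 of -HOT and 2 of +HOT cells. According to the methods and the submitters' processing notes, the authors used Trim_Galore for trimming, BWA for alignment to mm9, Picard against duplicates and SAMtools against unmapped, unpaired and blacklisted reads, called narrow peaks with MACS2 and deposited raw read counts per interval. The sources used here give neither versions nor the way peaks were merged. The same table holds values the authors scaled by size factors and the output of their own DESeq2 comparison, and further lists hold the sites they called; none of these were used. Footprint scores, deposited per motif for merged replicates, are used in the closing section only. Intervals on autosomes, sex chromosomes and unplaced contigs were kept, and coordinates are those of the count table.

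Counts of the 119609 intervals were fitted in R 4.3.3 with edgeR 4.0.16 (TMM factors, filterByExpr, glmQLFit and glmQLFTest, +HOT over -HOT), and p-values were adjusted by Benjamini-Hochberg over all 119603 tested sites. A site was called at an adjusted p below 0.05 and an absolute log2 fold change above 0.40. The SE was taken as the absolute log2 fold change over the square root of F. Sites were placed by their centre, within 3000 bp of a start of GENCODE vM1, and elsewhere in a gene as gene body sites. For the comparison within a gene by diffSpliceDGE, each site was assigned to 1 gene (centre inside the gene extended by 3000 bp, nearest start). CPM (counts scaled to a common library size) used the reads in intervals times the TMM factor of the library. Scripts were tested on simulated counts. Libraries held 21356440 to 37151163 reads in intervals, and a member site between 20 and 3694 reads in a library.

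Named in the text were, for each gene, the site nearest to a start where called and in each role group the strongest uncalled one, the 10 other called sites with the largest change in full and the rest by value, up to 3 genes of each other list, and every site that differed from the rest of its gene; the 5 largest body changes in each direction and the sites set against them were added after their values were seen. Some list genes and sequences are not reported here. Members and lists were chosen with earlier results of these data known. Alternatives were library totals, TMM on distal sites, other filters, abundance-trended and GC offsets, a replicate block, leaving out each library, DESeq2 1.42.0, no fold minimum and other rules for the window. Those for gene bodies were chosen after seeing the data. Motifs were searched as exact letters on both strands of mm9 read with pysam 0.24.0.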

Additional observations from a re-analysis of the deposited data

How the results depend on the processing

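The number of lost sites (21) was 12 with library totals, 13 with abundance-trended offsets, 38 with no fold minimum, 13 within 1000 bp of a start (of 61 sites) and 7 over the nearest sites alone (of 42). The number of gained sites (2) was 1 with TMM on distal sites, with DESeq2, within 1000 bp and over the nearest sites. The median (-0.23) was -0.16 with library totals, -0.32 with TMM on distal sites, -0.064 with abundance-trended offsets, -0.15 with the GC trend removed and -0.19 over the nearest sites. DESeq2 gave 15087 gained sites in all (main value 25433) and 7 gained body sites of the module (16).

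Leaving out 1 library at a time gave 14 to 22 lost and 1 to 2 gained member sites, a median from -0.25 to -0.20, 41 to 49 lost and 12 to 15 gained body sites, 8 to 13 sites that differed from the rest of their gene, and 18620 to 21369 gained and 13891 to 16266 lost sites in all. With the replicate block 22 member sites were lost and 2 gained, and 19 instead of 11 differed from the rest of their gene. The libraries share only a replicate number: over sites the differences of replicate 1 and 2 correlated between the conditions at 0.0409. The blocked fit ended no call of a member site.

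None of the 23 called sites changed sign under the 13 alternatives, of which no fold minimum leaves the fold changes as they are. Of the sites followed through the alternatives, which leave out uncalled sites named by 1 value alone, 11 changed sign, each uncalled. With library totals the log2 fold change was 0.035 at Acta2 +222, 0.043 at Arpc2 +565, 0.042 at Mkl1 -64 and 0.062 at Srf -173. With abundance-trended offsets it was 0.16 at Acta2 +222, 0.013 at Actn1 +125, 0.067 at Tpm3 -23, 0.11 at Myl6 +393, 0.095 at Cald1 +196, 0.020 at Tagln -315, 0.18 at Arpc2 +565, 0.12 at Cfl1 +361, 0.17 at Mkl1 -64 and 0.20 at Srf -173. With the GC trend removed it was 0.023 at Actn1 +125, 0.026 at Tpm3 -23, 0.064 at Arpc2 +565, 0.097 at Cfl1 +361, 0.19 at Mkl1 -64 and 0.22 at Srf -173, and with TMM on distal sites -0.011 at Lima1 +1200. Leaving out 1 library at a time, the values ran from -0.13 to 0.053 at Acta2 +222, from -0.14 to 0.081 at Arpc2 +565, from -0.19 to 0.024 at Cfl1 +361, from -0.13 to 0.064 at Mkl1 -64 and from -0.13 to 0.095 at Srf -173. The median of all sites was 0.071 with library totals and -0.083 with TMM on distal sites. The cause of these differences was not tested.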

Other observations

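The deposited footprint scores for each motif, made from merged replicates and so without any measure of error, include SRF and the TEAD factors. For SRF, over 2524 footprint sites, the protection score was 0.898 in -HOT and 0.846 in +HOT, and the tag count score 0.803 and 0.776. For TEAD1, over 8942 sites, the protection score was 0.706 in -HOT and 0.557 in +HOT. Of the 559 motifs with at least 1000 sites, 0.54% had a more negative difference of the protection score. The tag count score of TEAD1 was 0.778 in -HOT and 0.750 in +HOT, and 19.0% of these motifs had a more negative difference. For SRF the shares were 3.76% by protection score and 19.1% by tag count score. For TEAD2, TEAD3 and TEAD4 they were 8.59%, 7.16% and 13.1% by protection score, and 12.7%, 9.12% and 16.1% by tag count score. TEAD2, TEAD3 and TEAD4 had protection scores of 0.753, 0.685 and 0.585 in -HOT and 0.716, 0.646 and 0.555 in +HOT. For MEF2A, a factor of muscle genes, the scores were 0.574 and 0.576 over 8142 sites. The scores cover footprints in the whole genome, not those of the actin and contractile genes.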
